A study of Mus musculus with 11 samples.

Results

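F3-positive adipose stem cells (ASC) were cells of the stromal vascular fraction of mouse perigonadal white adipose tissue (pgWAT) that carried reads of F3, the gene of tissue factor (CD142), with few or no reads of Dpp4 and Il6. Limits were set on CPM, the reads of a gene scaled to the same total of gene reads in each cell. An ASC had Pdgfra of at least 20 CPM and less than 50 CPM for Pecam1, Cdh5 and Kdr together. A member then had Dpp4 below 10, Il6 below 50 and F3 of at least 30 CPM. By this rule 821 of 3261 cells were members (25.2% of all cells), among 2052 ASC. The other 1231 ASC comprised 669 with Dpp4 above its limit (Dpp4-positive ASC), 212 with Il6 above its limit but low Dpp4 (Il6-positive ASC), and 350 within both limits but with F3 under 30 CPM (F3-low ASC).

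The cells came from adult transgenic Pdgfrb-eGFP reporter mice backcrossed to C57BL6/J, with no treatment in either sex, and were read with full-length Smart-seq2 on 11 plates. The male group was mouse 1, 4 and 8 (n = 3), with 74, 162 and 51 members. The female group was mouse 2, 3, 5 and 6/7 (n = 4), with 296, 110, 35 and 93 members. The id 6/7 covers 2 animals that shared their plates and counts here as 1 sample. Cells were sorted on the reporter, on CD31 or on both, and in mouse 2 also on DPP4, so which ASC could be caught differed between plates. The reporter labels cells with an active Pdgfrb promoter, pericytes included, and CD142 protein was not sorted on. Reads in genes ranged from 141935 to 3526227 per cell, with a median of 616939.

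F3 encodes tissue factor, the membrane receptor that binds factor VII and starts the extrinsic pathway of blood coagulation. Stromal cells around vessels and in adipose tissue are known to carry it. In white fat, CD142-positive stromal cells were described as adipogenesis regulatory cells (Aregs), beside DPP4-positive interstitial progenitors (ASC2) and committed preadipocytes (ASC1a). Fmo2, a flavin monooxygenase, and Clec11a, a secreted C-type lectin that acts as a growth factor of skeletal stem cells, serve as further marker genes of the CD142-positive group (ASC1b).

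F3 (ENSMUSG00000028128, GRCm38 chromosome 3, 121723537 to 121735048) chose the members, so its level in them is a description. The median per cell was 89.0 CPM in mouse 1, 246.9 in mouse 4, 95.2 in mouse 8, 256.8 in mouse 2, 519.1 in mouse 3, 218.2 in mouse 5 and 318.5 in mouse 6/7. Members of mice 1 and 8 thus sat low and those of mouse 3 high. Over all members the median was 238.6 CPM (quartiles 108.3 and 478.8, highest 4257), and 638 of them (77.7%) had at least 100 CPM. The lowest F3 read count of a member was 5 and the median 156. Just inside the F3 limit lay cells of 30.1, 30.2 and 30.4 CPM and just outside it cells of 29.5, 29.4 and 28.9 CPM. In all, 53 members lay from 30 to under 45 CPM and 39 F3-low cells from 20 to under 30 CPM. The nearest values to the Dpp4 limit were 9.95 and 11.8 CPM, and to the Il6 limit 48.6 and 50.02 CPM. No Dpp4 read was found in 527 members and no Il6 read in 443, whereas only 85 of the 350 F3-low cells had no F3 read.

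Reads of 2 ribosomal RNA rows moved the CPM scale between mice. They took a median of 65.3% of the reads of members in mouse 1, 57.8% in mouse 8 and 53.0% in mouse 5, against 28.0% to 34.4% in mice 2, 3, 4 and 6/7. In CPM over the reads outside these rows, the median F3 of members was 296.1 in mouse 1, 351 in mouse 4, 236.2 in mouse 8, 364.4 in mouse 2, 688 in mouse 3, 442 in mouse 5 and 539.9 in mouse 6/7, so mice 1 and 8 lay nearer to the rest. With the whole rule set on that scale 793 cells were members, of which 747 were members by the rule as given.

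**Figure D1:**
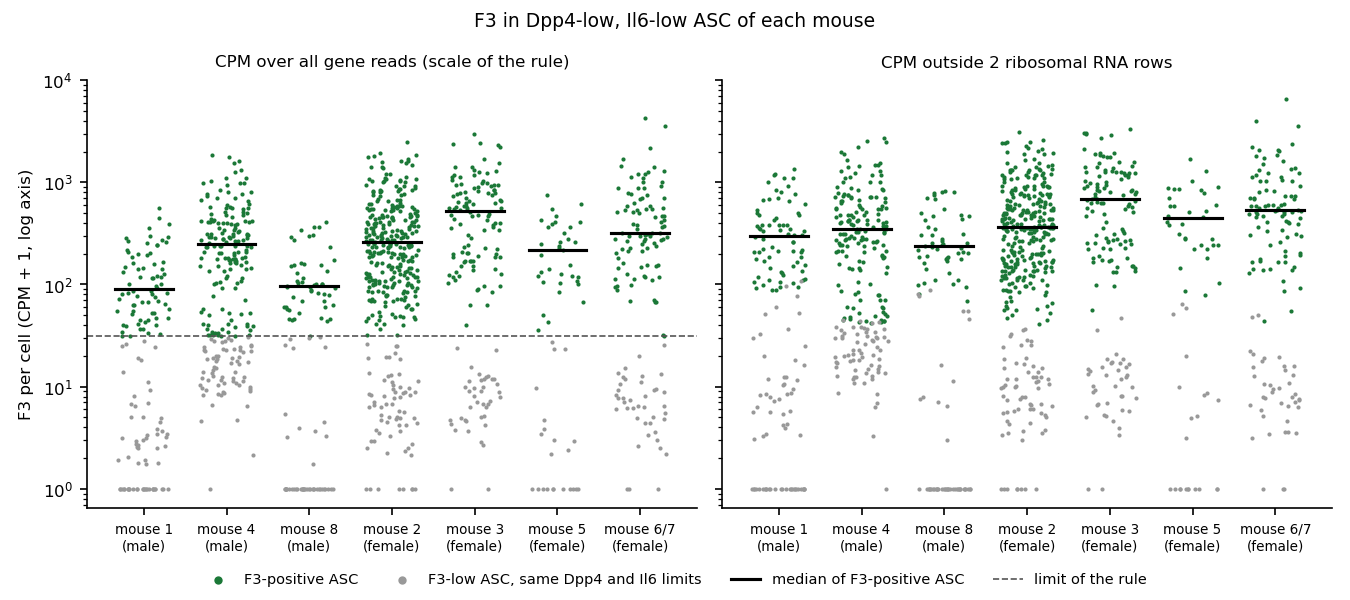
F3 per cell (CPM + 1, log axis) in Dpp4-low, Il6-low ASC of each mouse, over all gene reads (left, the scale of the rule, with its limit dashed) and over reads outside 2 ribosomal RNA rows (right). Green points are the 821 F3-positive ASC, grey points the 350 F3-low ASC and black bars the medians of the F3-positive ASC, which run from 89.0 to 519.1 CPM on the left and from 236.2 to 688 CPM on the right.

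The label was checked against marker genes. Members carried the genes that define ASC: after thinning each cell to 100000 reads, Pdgfra, which the rule used, was read in 99.9% of members, the collagen gene Col1a1 and decorin (Dcn) in 100%, and lumican (Lum) in 99.9%. Fmo2 was read in 45.6% of thinned members, 41.4% of F3-low, 24.1% of Dpp4-positive and 40.6% of Il6-positive ASC. It was also read in 22.3% of 714 endothelial cells (cells of at least 50 CPM for Pecam1, Cdh5 and Kdr together and Pdgfra under 20 CPM). Clec11a was read in 44.7% of members, 33.1% of F3-low, 27.4% of Dpp4-positive and 48.6% of Il6-positive ASC, and in 1.68% of endothelial cells. Unthinned, Fmo2 was read in 66.4% of members and 60.3% of F3-low ASC, and Clec11a in 68.0% and 51.1%. Median depths were 666853 reads in members, 608787 in F3-low, 716968 in Dpp4-positive and 683576 in Il6-positive ASC, and 511283 in endothelial cells. Neither marker was thus found in members alone, and the cells are called F3-positive by their rule here.

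Markers of other cell classes overlapped between members and the other ASC in range over mice. In CPM outside ribosomal RNA of the summed cells of each mouse, 6 pericyte markers summed to 8.36 to 75.2 in members and 4.38 to 149.6 in other ASC, higher in members in 4 of 7 mice. The 6 smooth muscle markers summed to 89.1 to 559.6 and 55.2 to 448.6, also higher in members in 4 of 7 mice. The 6 endothelial markers that the rule did not use summed to 2.52 to 9.16 against 1.08 to 21.7, and 8 macrophage markers to 2.16 to 19.4 against 5.59 to 15.8, with Cd163, Ptprc and Adgre1 under 1 CPM in every mouse. Epithelial markers stayed under 1 CPM with Cdh1 at 0, and 5 mesothelial and 4 glial markers summed to 0.0945 to 29.8 and 1.51 to 24.0 CPM in members against 0.184 to 42.5 and 1.47 to 21.9 CPM in other ASC. The 8 adipocyte markers summed to 3.36 to 150.6 CPM in members and 3.31 to 129.7 CPM in other ASC, higher in members in 5 of 7 mice. Of the members, 56 held at least 500 CPM of such markers, and counts without those cells are given with the processing alternatives.

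F3 of at least 30 CPM was found in most ASC of each class. Within the Dpp4 and Il6 limits 821 of 1171 cells passed it (70.1%, 95% Wilson interval 67.4 to 72.7, range over mice 52.6% to 81.3%). Of Dpp4-positive ASC 415 of 669 passed (62.0%, 58.3 to 65.6, mice 44.4% to 71.7%) and of Il6-positive ASC 163 of 212 (76.9%, 70.8 to 82.1, mice 50% to 86.5%). Only 10 of 714 endothelial cells did (1.40%, 0.763 to 2.56), and those of mice 3 and 4, with 4 of 7 and 1 of 2 cells, held 5 of them. The 821 members were thus 821 of 1399 ASC with that much F3.

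The share was set against that of Dpp4-positive ASC of the same mouse with an exact paired permutation test, two-sided, whose smallest p over 7 mice is 0.0156. The share within the limits was higher by 5.19 percentage points on average (SD 15.6, range −18.8 to 20.8), in 4 of 7 mice (exact p = 0.422). At 100 CPM the difference was 15.8 points (SD 17.1, higher in 6 of 7 mice, exact p = 0.0781). The F3 level of the summed cells, outside ribosomal RNA, was higher by 201.8 CPM (SD 156.4, 6 of 7 mice, exact p = 0.0469). Against Il6-positive ASC the share differed by −3.51 points (SD 10.05, exact p = 0.328), and against endothelial cells it was higher in 7 of 7 mice (50.1 points, SD 23.7, exact p = 0.0156). Over the 15 such comparisons none passed adjustment, with 0.0586 for endothelial cells, 0.117 for the F3 level and 0.527 for the share against Dpp4-positive ASC. Since even endothelial cells did not pass, this adjustment cannot show that ASC classes had equal shares of F3-positive cells. The Il6-positive ASC of mice 1 and 5 were only 2 and 6 cells.

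**Figure D2:**
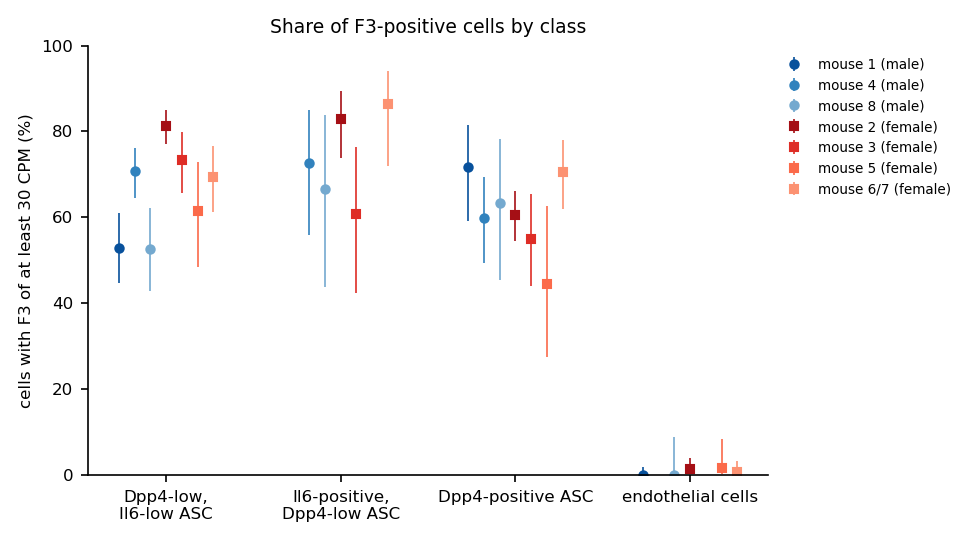
Share of cells with F3 of at least 30 CPM (%, y axis) in ASC within the Dpp4 and Il6 limits, Il6-positive, Dpp4-low ASC, Dpp4-positive ASC and endothelial cells, 1 point per mouse with its 95% Wilson interval (blue circles males, red squares females); mice with under 10 cells of a class are not drawn. The shares of ASC run from 44.4% to 86.5% and overlap between ASC classes, while those of endothelial cells lie at 0% to 1.56%.

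The share of ASC that were members did not differ between the sexes beyond the spread between mice. It was 36.6% (95% Wilson interval 30.3 to 43.5) in mouse 1, 46.4% (41.3 to 51.7) in mouse 4 and 35.2% (27.9 to 43.2) in mouse 8. Among females it was 41.2% (37.7 to 44.9) in mouse 2, 42.6% (36.8 to 48.7) in mouse 3, 38.9% (29.5 to 49.2) in mouse 5 and 32.1% (27.0 to 37.7) in mouse 6/7. The sexes overlapped, with 39.4% ± 6.1 in males (SD, n = 3) and 38.7% ± 4.7 in females (SD, n = 4). The exact permutation test gave p = 0.857, where 3 against 4 mice can give no less than 0.0571. Among ASC within the Dpp4 and Il6 limits the shares were 52.9%, 70.7% and 52.6% in males 1, 4 and 8 and 81.3%, 73.3%, 61.4% and 69.4% in females 2, 3, 5 and 6/7 (male minus female −12.6 points, exact permutation p = 0.171). In mouse 2 the share followed the sort: 67 of 362 ASC were members on the DPP4-positive plate 709 (18.5%) and 229 of 356 on the DPP4-negative plate 875 (64.3%). Since low Dpp4 was part of the rule, this direction was set by the choice of cells. Among ASC within the Dpp4 and Il6 limits, 67 of 89 (75.3%) on plate 709 and 229 of 275 (83.3%) on plate 875 were members. Without plate 709 the difference between the sexes was −5.07 points (exact permutation p = 0.8).

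Members were then compared with all other ASC of the same animal, as counts summed per mouse, with the mouse as a block (edgeR quasi-likelihood test, n = 7). Of these other ASC, 669 of 1231 were Dpp4-positive, which the rule kept out of the members. Members had more of the preadipocyte genes Cxcl14, G0s2, Lpl and Col15a1 and of the matrix gene Spon1. They had less of Pi16, Cd55 and Efhd1, genes of DPP4-positive progenitors, and of the microfibril gene Fbn1. With F3-low ASC of the same Dpp4 and Il6 limits as the other side, edgeR called F3 alone. Against all other ASC, 253 of 11502 genes tested were called at an adjusted p below 0.05 (2.2%). Of these, 90 were higher (0.782%) and 163 lower (1.42%) in members. The 253 include F3, Dpp4 and Il6, which chose the cells. Of them 237 had the same direction in 7 of 7 mice. A test blocked by mouse favours such genes, and their share over all genes tested was not counted. Differences upwards were modest, with 12 of the 90 genes higher by 2-fold or more, against 94 of the 163 lower genes. Without plate 709 the count was 73 (21 higher, 52 lower), and leaving out a mouse gave 172 to 285.

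No quality measure passed adjustment over 12 tests. With 7 mice the exact p cannot fall under 0.0156, so 1 measure alone could not have passed. Failing the adjustment therefore does not show equal quality. The mitochondrial share of reads was lower in members in 7 of 7 mice, by a mean of 0.0766 percentage points (exact paired permutation p = 0.0156, the smallest possible, adjusted 0.113). Reads per cell (5 of 7 mice higher, exact p = 0.422) and genes detected at 100000 reads (2 of 7 higher, mean difference −60.9, exact p = 0.0938) did not differ beyond the spread between mice. The ribosomal RNA share was lower in members in 6 of 7 mice (mean difference −2.26 points, exact p = 0.0312, adjusted 0.113), and the spike-in share was higher in 6 of 7 mice (0.174 points, exact p = 0.0469, adjusted 0.113), with mouse 2 at 1.02 points. Their part in the gene differences was not tested.

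Genes were named among protein-coding calls outside the rule that were higher in members of every mouse. Of these, the largest increases were in Cxcl14, Emb, Plvap, Fndc5, Sept4, Sox9, P2ry1, G0s2, Adgre5, Spon1, Echdc2 and Snai2. Cd36 (log2 difference 1.31), not higher in every mouse, was left out by that choice. Levels are given as TMM-scaled CPM, the CPM of the summed cells after scaling the sums by trimmed means. Cxcl14 (chromosome 13, 56288643 to 56296551), a chemokine of epithelia and stroma, had 57.3, 66.4, 175.1, 87.3, 42.5, 73.96 and 51.9 CPM in members of mice 1, 4, 8, 2, 3, 5 and 6/7. The other ASC of the same mice, in the same order, had 16.8, 18.3, 87.3, 29.4, 21.6, 30.5 and 11.1 CPM. Every mouse had more in members, by 1.53 on the log2 scale (SE 0.16, edgeR adjusted p = 4.6e-04).

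G0s2 (chromosome 1, 193272161 to 193273217), an inhibitor of the triglyceride lipase ATGL, had 105.6, 73.2, 80.9, 163.4, 106.3, 89.8 and 165.1 CPM in members and 45.7, 53.3, 63.3, 75.8, 60.5, 29.6 and 49.9 CPM in other ASC of the same mice (log2 difference 1.04, SE 0.17, edgeR adjusted p = 0.0070). Levels overlapped between mice but were higher in members within each of the 7. Sox9 (chromosome 11, 112782224 to 112787760), a transcription factor of mesenchymal progenitors, had 331.9, 78.5, 78.0, 60.02, 18.0, 22.3 and 27.9 CPM in members and 110.0, 37.8, 27.6, 48.1, 5.69, 11.5 and 22.3 CPM in other ASC (log2 difference 1.06, SE 0.18, edgeR adjusted p = 0.0098). Mouse 1 stood highest in both classes, and the smallest rises were those of mice 2 and 6/7.

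Spon1, a secreted matrix protein, ranged from 272.2 to 946.5 CPM in members and from 107.6 to 366.6 CPM in other ASC (log2 difference 0.99). Emb, a chaperone of lactate transporters, was at 0.612 to 2.00 CPM in members of males and 27.9 to 167.4 CPM in those of females, and rose in members within each mouse (1.31). Adgre5 (CD97), an adhesion receptor that binds CD55, rose by 1.01, P2ry1, a receptor for ADP, by 1.06, Snai2, a transcription factor of mesenchymal cells, by 0.97, Fndc5, the precursor of irisin, by 1.09, and the septin gene Sept4 by 1.07. Echdc2, a mitochondrial protein related to enoyl-CoA hydratases, rose by 0.98. Plvap, a protein of endothelial diaphragms, had 4.26 to 21.7 CPM in members and 2.48 to 10.3 CPM in other ASC (1.18). The endothelial markers outside the rule were higher in members in 3 of 7 mice, and their part in this difference was not tested. The calls of Emb, Plvap, Fndc5, P2ry1, Adgre5, Echdc2 and Snai2 were lost without plate 709, at log2 differences of 0.89 to 1.11. Those of Plvap, Fndc5, P2ry1 and Adgre5 were also lost when any of 4 to 6 single mice was left out (0.89 to 1.23), while those of Cxcl14, Sept4, Sox9, G0s2 and Spon1 held without plate 709 and without each mouse. With sums within plates and the plate as block, Sox9 was not called (0.81, adjusted p = 0.162), nor with F3 of at least 100 CPM (1.08, adjusted p = 0.069).

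**Figure D3:**
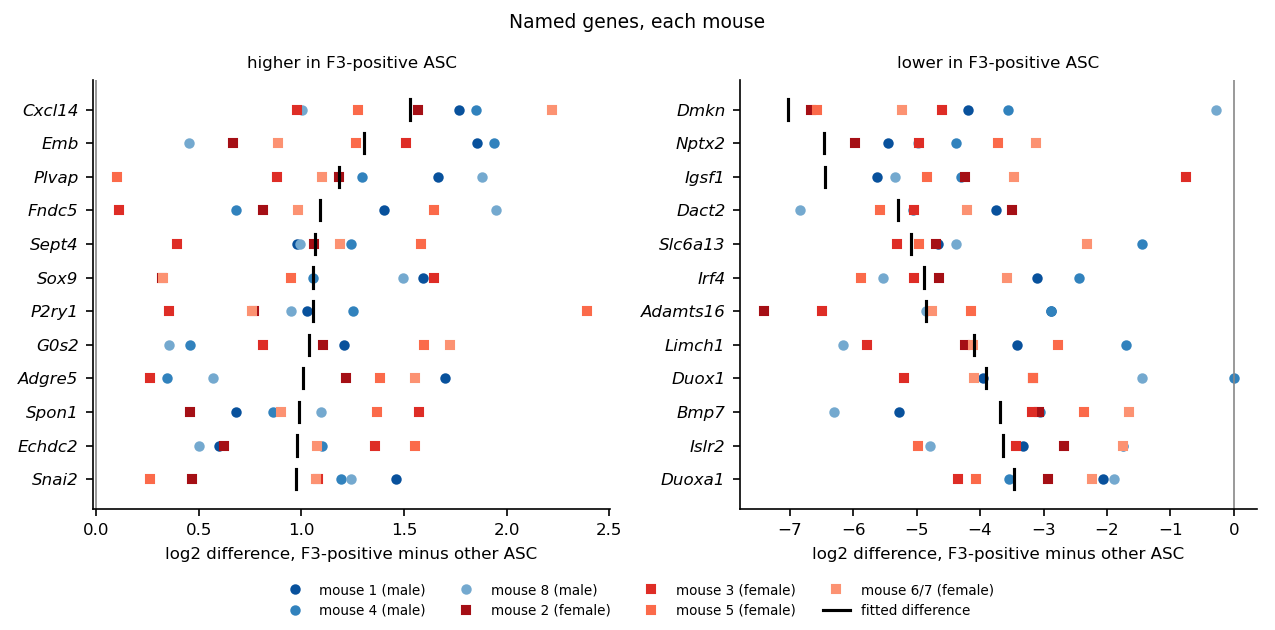
Log2 difference between F3-positive and other ASC (x axis) in each mouse for 12 genes in each direction. They are the called protein-coding genes outside the rule with the largest change, among those of 1 sign in all 7 mice. Circles are males, squares females and black bars the fitted difference. By that choice the 12 genes on the left lie above 0 and the 12 on the right below 0 in all 7 mice. Fitted values are 0.97 to 1.53 on the left and −3.46 to −7.03 on the right.

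Genes of committed preadipocytes were higher in members than in the other ASC, 669 of 1231 of which were Dpp4-positive and left out of the members by the rule. Of 14 such genes tested 10 were called higher and 0 lower, with a median log2 difference of 0.68 against −0.01 over all genes. Beside Cxcl14 and G0s2 these were Lpl, lipoprotein lipase (0.71, SE 0.09), Col15a1, a collagen of basement membranes (0.87, SE 0.13), Pparg, the master regulator of adipogenesis (0.85, SE 0.20, edgeR adjusted p = 0.04999), Cd36, a fatty acid transporter (1.31, SE 0.30), Plin2, a lipid droplet coat protein (0.64, SE 0.15), Sparcl1 (0.51) and the basement membrane collagens Col4a1 (0.39) and Col4a2 (0.36). Pparg lay at 5.25 to 24.2 CPM in members and 2.25 to 17.1 CPM in other ASC. Cd36 was the exception to a common direction, with mouse 5 at 9.53 CPM in members and 10.3 CPM in other ASC. Against F3-low ASC of the same Dpp4 and Il6 limits edgeR called 0 of these 14 genes (median 0.22). Adipocyte markers, at a median of 63.8 CPM in members and 26.3 CPM in other ASC outside ribosomal RNA, moved the same way in 5 of 7 mice. Pparg was also read in 54.3% of thinned endothelial cells and 26.3% of thinned members. Endothelial markers outside the rule were higher in members in 3 of 7 mice. The part of adipocyte or endothelial reads in these differences was not tested.

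Genes of DPP4-positive interstitial progenitors were lower in members. Of 17 tested 15 were called lower and 0 higher (median log2 difference −2.05). Since low Dpp4 was part of the rule, this direction was set by the choice of cells and is given as a description of what accompanied Dpp4. Pi16, a peptidase inhibitor that marks these progenitors, had 233.2, 623.6, 167.5, 129.0, 246.5, 85.4 and 189.2 CPM in members and 787.8, 1131, 823.9, 854.4, 1365, 614.1 and 491.7 CPM in other ASC (mice 1, 4, 8, 2, 3, 5 and 6/7). Cd55, a complement inhibitor, had 44.4 to 185.3 CPM against 163.5 to 502.5 CPM (log2 difference −1.66, SE 0.09). Efhd1, a mitochondrial calcium-binding protein, had 0.986 to 37.7 CPM against 56.2 to 154.0 CPM (−3.001, SE 0.36). All 7 mice were lower in members for each of these 3 genes.

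Among protein-coding calls outside the rule that were lower in every mouse, the 12 largest decreases were in Dmkn, Nptx2, Igsf1, Dact2, Slc6a13, Irf4, Adamts16, Limch1, Duox1, Bmp7, Islr2 and Duoxa1, with log2 differences from −7.03 to −3.46. Low Dpp4 was part of the rule and most other ASC were Dpp4-positive, so these decreases are given as a description. Of the 12, only Adamts16 passed the filter on counts against F3-low ASC (−1.69, SE 0.81, edgeR adjusted p = 0.953). Outside ribosomal RNA its median over mice was 128.6 CPM in Dpp4-positive ASC, 12.1 in F3-low ASC and 1.62 in members. Adamts16, a secreted metalloprotease, had 15.1 CPM in members of mouse 1 and 0.136 to 2.68 CPM in the other 6 mice, against 111.8 and 11.5 to 50.8 CPM in other ASC. Bmp7, a ligand of the bone morphogenetic protein family, had 0.406 to 6.84 CPM against 1.60 to 69.3 CPM. Duox1 and Duoxa1, a dual oxidase and its maturation factor, fell together (−3.90 and −3.46). Nptx2, a pentraxin, was at 0 to 0.374 CPM in members against 0.865 to 14.9 CPM. Of these genes Dact2, Slc6a13, Bmp7 and Duoxa1 were not called without plate 709 (log2 differences of −4.995, −4.32, −3.21 and −2.91), and Duox1 was not called without mouse 1, 5 or 6/7 (−3.46 to −4.06), nor Slc6a13 without mouse 1 (−5.16).

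Of the genes that mark Aregs or the CD142-positive group, some were called higher against all other ASC and 0 lower. Clec11a (chromosome 7, 44302687 to 44306902) had 32.6, 28.6, 32.3, 87.6, 73.6, 94.6 and 61.2 CPM in members and 19.3, 22.5, 17.4, 43.4, 30.5, 43.8 and 41.2 CPM in other ASC (log2 difference 0.85, SE 0.13, edgeR adjusted p = 0.0042). Fmo2 (chromosome 1, 162874317 to 162898726) had 172.2, 114.2, 149.3, 56.9, 23.4, 20.1 and 74.7 CPM against 99.6, 111.1, 131.5, 24.3, 5.38, 11.5 and 35.7 CPM. It was higher in 7 of 7 mice but did not pass the test (0.88, SE 0.21, edgeR adjusted p = 0.059), and did so without mouse 4 (1.02) or mouse 8 (1.00). Of 7 Areg genes tested 3 rose, Gdf10, a ligand of the TGF-beta family (0.82), Cygb, cytoglobin (0.66), and Bgn, biglycan (0.55), and 0 fell. Mgp (0.71), Cpe (0.86), Igfbp3 (0.55) and Vit (−0.35) did not pass. Over all genes tested 0.782% were called higher. Against F3-low ASC of the same limits 0 of the 7 Areg genes were called, with a list median of 0.17. Split by the Dpp4 and Il6 limits alone, all ASC differed in Clec11a by 1.13 and in Fmo2 by 1.13. Gdf10 then differed by 0.94, Cygb by 0.72 and Bgn by 0.62.

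Partners of tissue factor in coagulation and fibrinolysis were examined as a list of 30 genes, of which 14 passed the filter on counts. The ligand F7, the proteases F10 and F2, and the receptor F2rl1 were not among them: F7 had 0 to 0.05 CPM outside ribosomal RNA in members. Gas6, a vitamin K-dependent ligand of the TAM receptors, rose, with 366.5, 324.9, 222.9, 149.2, 400.1, 433.5 and 136.7 CPM in members and 204.1, 250.4, 128.9, 82.7, 226.2, 121.0 and 78.4 CPM in other ASC (log2 difference 0.90, SE 0.14, edgeR adjusted p = 0.0054). S100a10, the partner of annexin A2 that binds plasminogen, fell (−0.42, SE 0.08). The inhibitors Tfpi (0.02) and Tfpi2 (−0.67), thrombomodulin Thbd (−0.30), the thrombin receptor F2r (0.52), and the plasminogen activators Plat (−0.38, adjusted p = 0.062) and Plau (0.26) did not pass. The median of the 14 was 0.03, near that of all genes. With F3-low ASC as the other side 0 of 14 were called, with Gas6 at 0.00 (SE 0.16) and S100a10 at −0.13 (SE 0.16).

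Extracellular matrix genes went both ways. Among 25 collagens Col15a1, Col4a1, Col4a2 and Col6a3 rose and Col14a1 (−0.78) and Col4a5 (−1.08) fell. Among 42 other matrix genes 9 rose, the small leucine-rich proteoglycans Dcn (0.34), Lum (0.27), Bgn and Prelp (0.48) with Matn2, Smoc2, Sparcl1, Spon1 and Spon2, and 7 fell, the microfibril genes Fbn1 (−1.36) and Mfap5 (−1.03), fibronectin Fn1 (−1.11), Postn (−1.11), Efemp1, Nid1 and Lama4. Fbn1 had 316.6 to 1360 CPM in members and 864.9 to 3760 CPM in other ASC, lower in 7 of 7 mice (SE 0.06, edgeR adjusted p = 9.9e-07). When members were set against F3-low ASC, 0 of 25 collagens and 0 of 42 other matrix genes were called. Fbn1 then differed by −0.38 (SE 0.15, edgeR adjusted p = 0.953). Split by the Dpp4 and Il6 limits alone, all ASC differed in Fbn1 by −1.59 (SE 0.13).

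Signalling genes went both ways. Of 31 TGF-beta and BMP genes 6 were called, where 2.2% of all genes were: Gdf10 and the BMP modulator Bmper (0.64) rose, and the follistatin-like Fstl1 (−0.73), the receptor Tgfbr2 (−0.66), and the ligands Bmp6 (−2.52) and Tgfb2 (−0.77) fell. Igf1 (0.70) and Igfbp7 (0.48) rose and Igfbp6 (−0.47) fell, 3 of 8 insulin-like growth factor genes. Of 21 WNT genes the antagonist Sfrp2 fell (−1.64). Cxcl12, a chemokine that retains leukocytes and progenitors, rose beside Cxcl14 (0.68), among 18 chemokine and cytokine genes. Of 19 adipogenic regulators Pparg and Sox9 rose and Klf4 (−0.49) and Ebf2 (−0.46) fell. In the comparison with F3-low ASC 0 genes of these lists were called. Gdf10 then differed by 0.52 (SE 0.18), Tgfbr2 by −0.04 (SE 0.15) and Ebf2 by 0.20 (SE 0.22).

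In the remaining lists, of 12 complement genes Cfb rose (0.65) and Cd55 fell, and of 15 lipid transport genes Cd36 and Abca8a (0.55) rose. Of 19 genes listed for vascular ligands, Edn1 (−3.45), Sema3c (−2.18) and Sema3e (−3.13) fell. In that list the receptor gene Pdgfrb, whose reporter the sorts used, rose (0.44). Klf2 alone fell (−0.59) among 19 immediate early genes, which cell dissociation is known to raise. Of 14 retinoid genes, 3 flavin monooxygenase genes and 23 genes the study named for sex differences, edgeR called 0. Of the markers of other cell classes 14 passed the filter and 0 were called. Compared with F3-low ASC, members had 0 calls in these lists, with Klf2 at 0.01 (SE 0.17) and Cfb at 0.55 (SE 0.25).

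The F3 limit was then taken alone, by comparing members with the F3-low ASC that met the same Dpp4 and Il6 limits (350 cells, 22 to 68 per mouse). In this comparison 1 of 9879 genes was called (0.0101%), and it was F3 itself, by which the cells were chosen. At an unadjusted p below 0.05 there were 465 genes, the likelihood ratio test called 2 genes (F3 and Cldn11) and DESeq2 called 9 (F3, Cxcl14, Efhd1, Dgkq, Tspan13, Slc26a6, Gatm, Meox2 and Apln). When all ASC were split by the F3 limit alone, 1 of 11255 genes was called, again F3, with 849 at an unadjusted p below 0.05. When they were split by the Dpp4 and Il6 limits alone, 458 of 11545 were called (180 higher, 278 lower). These comparisons share cells with the one against all other ASC, so their values are given side by side. With the Dpp4 and Il6 limits alone Spon1 differed by 1.56 (SE 0.24), Gas6 by 1.46 (SE 0.21), Cxcl14 by 1.46 (SE 0.25), Col15a1 by 1.12 (SE 0.16), G0s2 by 1.12 (SE 0.17), Lpl by 0.88 (SE 0.10), Pi16 by −2.30 (SE 0.26) and Cd55 by −1.91 (SE 0.16). Members differed from all other ASC in these genes by 0.99, 0.90, 1.53, 0.87, 1.04, 0.71, −2.05 and −1.66.

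Cxcl14 differed by 1.05 (SE 0.24) from F3-low ASC and by 1.53 (SE 0.16) from all other ASC. Among the 12 named genes that were higher in every mouse, differences ran from 0.18 (Emb) to 1.05 (Cxcl14) against F3-low ASC, with a median of 0.50. Against all other ASC they ran from 0.97 to 1.53, with a median of 1.06. Fmo2 differed by 0.81 (SE 0.53) and Clec11a by 0.39 (SE 0.25) from F3-low ASC, with an adjusted p of 0.953 for both and for Cxcl14. Gas6 differed by 0.00 (SE 0.16), Col15a1 by 0.21 (SE 0.15), Lpl by 0.24 (SE 0.15), Pi16 by −0.31 (SE 0.24) and Cd55 by −0.43 (SE 0.18). Standard errors were wider here, with a median of 0.176 over 220 genes called against all other ASC, where the median of the called genes was 0.138. Beyond F3, members and F3-low ASC of the same limits were not told apart at this depth and number of mice by the quasi-likelihood test.

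**Figure D4:**
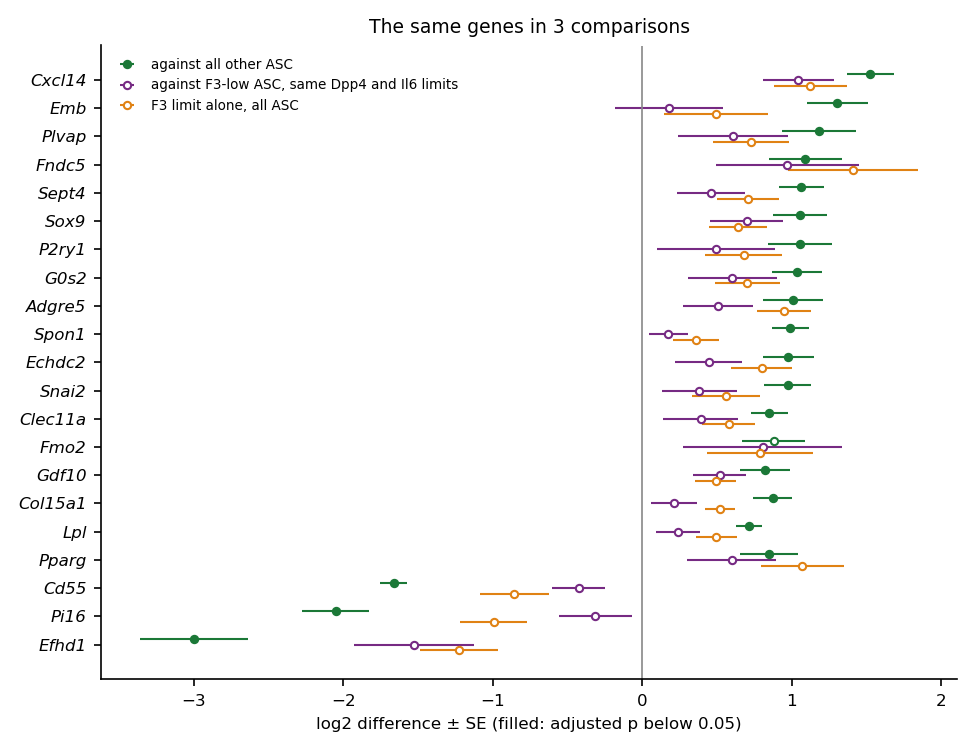
Log2 difference ± SE (x axis) of named genes in 3 comparisons: F3-positive ASC against all other ASC (green), against F3-low ASC of the same Dpp4 and Il6 limits (purple), and all ASC split by the F3 limit alone (orange); filled points have an adjusted p below 0.05. Every gene drawn but Fmo2 is filled in green and none is filled in purple or orange; Cxcl14 lies at 1.53 and 1.05, and Pi16 at −2.05 and −0.31, in green and purple.

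Levels by class are given for 3 genes as CPM outside ribosomal RNA of summed cells (median over mice, with the range, 7 mice except 5 for Il6-positive ASC). Cxcl14 was at 112.2 (79.5 to 243.4) in members, 54.6 (34.4 to 150.8) in F3-low, 56.1 (16.2 to 381.4) in Il6-positive and 19.8 (10.7 to 54.1) in Dpp4-positive ASC. Clec11a was at 124.4 (44.9 to 193.6), 64.3 (26.7 to 128.7), 127.1 (23.8 to 140.6) and 39.2 (6.80 to 60.8) in the same classes. Pi16 was at 384.5 (174.9 to 1055), 423.2 (114.9 to 1579), 231.1 (29.6 to 600.3) and 2574 (1443 to 3858). For each of the 3 genes members, F3-low and Il6-positive ASC overlapped, and for Pi16 Dpp4-positive ASC overlapped only the F3-low class.

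In mouse 2, where DPP4 was sorted, members of the DPP4-positive plate 709 (67 cells) and of the DPP4-negative plate 875 (229 cells) could be set side by side, without a test since each sort was 1 plate. In CPM outside ribosomal RNA, Dpp4 was 4.08 and 0.062, as the sort and the rule set it. F3 was 507.4 and 548.3, Pi16 459.7 and 198.1, Cxcl14 31.3 and 201.6, G0s2 141.5 and 357.4, Clec11a 117.3 and 181.5, and Fmo2 46.0 and 125.3. Gdf10 (620.9 and 589.2), Lpl (3327 and 3510) and Cd55 (260.6 and 229) were closer. F3-low cells of the same plates had 13.4 and 194.3 CPM of Cxcl14, and Dpp4-positive ASC of plate 709 had 15.5 CPM.

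F3 was also used to split the Dpp4-positive ASC, which are no members, a comparison chosen after the data were seen. Of 8646 genes 3 were called (0.0347%), F3, Apoe and Pcolce. Apoe, a carrier of lipids, had 41.3, 132.6, 12.2, 365.2, 579.8, 162.2 and 300 CPM in F3-positive cells of mice 1, 4, 8, 2, 3, 5 and 6/7 and 18.7, 43.7, 4.32, 100.1, 209.9, 55.7 and 174.6 CPM in F3-low cells (log2 difference 1.41, SE 0.15, edgeR adjusted p = 0.0031). Pcolce, an enhancer of procollagen processing, rose by 0.86 (SE 0.11, edgeR adjusted p = 0.028). Leaving out a mouse gave 2 to 4 calls. Whether the F3 split differs between Dpp4-positive and Dpp4-low ASC was not tested.

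F3-positive ASC of males were then compared with those of females (edgeR quasi-likelihood test, 3 against 4 mice). Males had more of transferrin, complement C7, angiotensinogen and several collagens, and females more of posterior Hox genes, Pgr and Oxtr. Of 9701 genes 123 were called at an adjusted p below 0.05 and a fold change above 2.6 (1.27%), of which 93 were male-higher (0.959%) and 30 female-higher (0.309%). With 3 against 4 mice, the sexes did not overlap in any of the 123, and over all genes tested they did not overlap in 1426 (14.7%). With library totals in place of TMM scaling the split turned to 36 higher in males and 73 in females, as the median of all genes moved from 0.05 to −0.59. The count was 47 without mouse 6/7, 64 without mouse 5 and 72 without mouse 8. F3 itself had a log2 difference of −0.42 (adjusted p = 0.545), given as a description since it chose the cells.

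Among the genes higher in males, Trf, transferrin (chromosome 9, 103204001 to 103230444), had 1857, 2089 and 1835 TMM-scaled CPM in males 1, 4 and 8 and 68.8, 69.1, 55.7 and 46.3 CPM in females 2, 3, 5 and 6/7 (log2 difference 5.01, SE 0.33, edgeR adjusted p = 2.1e-05). C7, of the complement membrane attack complex (chromosome 15, 4988762 to 5063740), had 685.4, 216.0 and 441.9 CPM against 7.45, 9.43, 5.50 and 6.23 CPM (5.97, SE 0.46). No female came near a male in either gene. Agt, angiotensinogen, had 638.2, 474.2 and 245.1 CPM against 7.39, 0.874, 5.83 and 0.243 CPM, and Hp, haptoglobin, 45.9, 335.8 and 154.9 CPM against 6.22, 2.46, 1.45 and 0.376 CPM. Sult1e1, the oestrogen sulfotransferase, had 616.7, 492.4 and 263.2 CPM in males and at most 0.137 CPM in females.

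Lrrn1, a leucine-rich membrane protein, had 4982 reads in members of males and 0 in those of females. Nt5e (CD73), which makes adenosine from AMP, had 36.0 to 61.5 CPM in males and 0 to 1.08 CPM in females. Pappa2, St8sia6 and Acsbg1 were at or below 0.167 CPM in every female, and the Y-linked Ddx3y (24.3 to 33.1 CPM) and Eif2s3y (17.7 to 24.0 CPM) at or below 0.111 CPM. The calls of Pappa2 and Nt5e were lost without mouse 6/7 (7.93 and 6.69), and that of Pappa2 also without mouse 5 (8.18).

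Among the genes higher in females were the posterior Hox genes Hoxa9, Hoxa10, Hoxa11 and Hoxc10, which encode position along the body axis. Hoxa10 had 29.8, 41.0, 20.3 and 27.7 CPM in females and at most 0.0073 CPM in males. Pgr, the progesterone receptor, had 14.9, 11.9 and 7.74 CPM in females 3, 5 and 6/7, 0.351 CPM in mouse 2 and at most 0.0244 CPM in males. Oxtr, the oxytocin receptor, had 3.66 to 23.6 CPM in females and 0 to 0.147 CPM in males, and the steroid dehydrogenase gene Akr1c14, whose family has near-identical members, 35.4 to 87.0 CPM against at most 0.0682 CPM. Emb had 28.9 to 168.8 CPM in females and 0.614 to 1.97 CPM in males (−5.91, SE 0.73). Ptpn5, Tenm4, P4ha3 and Clec14a completed the 12. Mouse 2 was the lowest female in Ptpn5, Tenm4, Pgr, P4ha3 and Oxtr. The calls of Pgr (without mouse 4 or 8), Ptpn5 (without mouse 1, 4, 8 or 6/7) and Clec14a (without mouse 1, 2, 5 or 6/7) were lost.

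**Figure D5:**
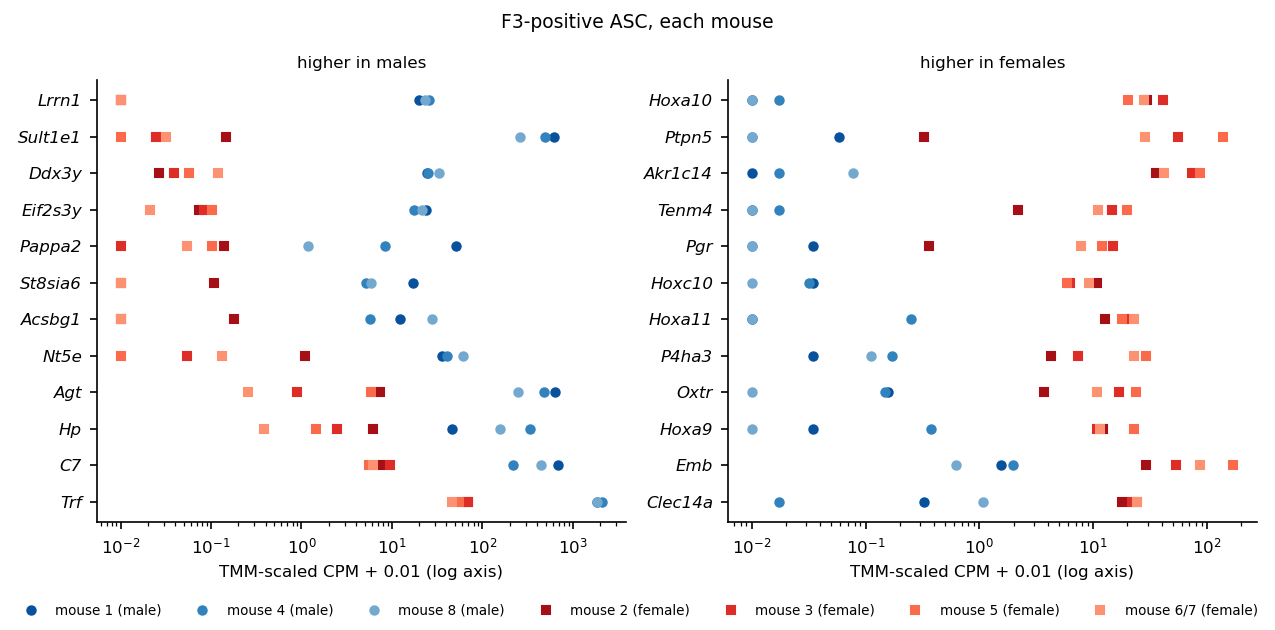
TMM-scaled CPM + 0.01 (log axis) in F3-positive ASC of each mouse for 12 genes in each direction. They are the called protein-coding genes outside the rule with the largest difference, among those without overlap between the sexes. Blue circles are the 3 males and red squares the 4 females. By that choice the sexes do not overlap in any gene drawn. Trf lies at 1835 to 2089 CPM in males and 46.3 to 69.1 CPM in females.

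Over all genes tested 1.27% were called, 0.959% higher in males and 0.309% higher in females. By gene list, 6 of 25 collagens were called, all higher in males (Col4a2, Col4a5, Col4a6, Col6a5, Col6a6 and Col8a1, median of the list 1.56 against 0.05 over all genes). The lists were not counted with library totals in place of TMM scaling. Col4a5 had 54.5, 59.1 and 74.2 CPM in males and 4.60, 5.55, 3.78 and 2.58 CPM in females. Of the other matrix genes Svep1, Prelp, Egflam and Hmcn2 were higher in males and Lum higher in females (−1.72), among 41 tested. Of 11 retinoid genes the retinaldehyde dehydrogenases Aldh1a1 (1.82) and Aldh1a3 (2.03) were higher in males. In the coagulation list Serpine2, an inhibitor of thrombin and plasminogen activators, was higher in males (214.5, 202.7 and 199.1 CPM against 61.7, 44.4, 23.7 and 49.2 CPM; 2.20), and the other 13 tested were not called. Of the genes of the CD142-positive group Gdf10 was higher in males (2097, 659.2 and 794.2 CPM against 319.2, 187.1, 196.9 and 209.0 CPM), and 0 of the other 6 tested Areg genes were called. Of 12 progenitor genes tested, Arl4d (2.73) and Smpd3 (3.20) were higher in males and Cd55 higher in females (−1.47), with a list median of 0.59. Clec11a had 28.2 to 33.2 CPM in males and 62.0 to 95.4 CPM in females (−1.36, SE 0.30, adjusted p = 0.053), and Fmo2 112.6 to 175.4 CPM and 20.3 to 75.5 CPM (1.71, SE 0.46, adjusted p = 0.109). Neither marker passed. Of 23 genes the study named for sex differences in ASC 17 were called, which is not independent since that list was chosen on these samples.

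Whether the difference between members and other ASC itself differed between the sexes was asked with an interaction term in the blocked fit. Of 11502 genes edgeR's quasi-likelihood test called 0, with 679 at an unadjusted p below 0.05, while the likelihood ratio test called 24 and DESeq2 34. The 5 smallest p-values belonged to Timp3, Mmp2, Lrrc32, Aldh7a1 and Fbxo45. Timp3, an inhibitor of metalloproteases, had log2 differences between members and other ASC of −0.42, −0.80 and −0.07 in males 1, 4 and 8 and −2.13, −1.64, −1.60 and −1.83 in females 2, 3, 5 and 6/7 (interaction 1.37, SE 0.20, edgeR adjusted p = 0.408). Mmp2, a gelatinase, had 0.54, 0.61 and 0.33 in males and −0.37, −0.10, −0.16 and −0.16 in females (0.69, SE 0.11, edgeR adjusted p = 0.582). In both genes the sexes did not overlap, but the interaction did not pass adjustment over all genes. Choosing by the smallest p favours such genes, and their share over all genes tested was not counted. Lrrc32 (GARP), which presents latent TGF-beta, had −0.40, −0.31 and −0.86 in males and 0.65, 0.58, 0.45 and 0.93 in females (−1.18, SE 0.21, edgeR adjusted p = 0.635). Without plate 709 the test called 1 gene and without mouse 4 it called 2.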

How the data were processed

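Single cells of the stromal vascular fraction of pgWAT were sorted into plates and read with Smart-seq2. The deposited table held whole-number read counts per gene and cell, made by the authors from reads of the mm10 build. The submitters' processing notes name bcl2fastq, STAR and Salmon, whose versions and whose part in making whole counts are not given in the sources used here. Of 23507 gene rows, 23461 matched GENCODE vM21, from which coordinates were taken, and 72 spike-in rows were set aside. All 3261 deposited cells were used, no doublet caller was run, and no plate and well name was repeated.

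Counts were summed per mouse and class and tested with edgeR 4.0.16 (R 4.3.3), using TMM factors and the quasi-likelihood test with Benjamini-Hochberg adjustment. Genes with more than 600 counts in at least 2 sums were kept. The mouse was a block in comparisons between classes, since both classes came from the same animals. Deviations of paired sums from their class means correlated at 0.426 to 0.768. Calls needed an adjusted p below 0.05 and, between the sexes, a fold change above 2.6. Alternatives used DESeq2 1.42.0, the likelihood ratio test, other scaling, filters and limits, and each mouse left out. The scripts were tested on simulated data. Replicates were mouse ids, and mouse 6/7 stands for 2 animals. Exact permutation tests were two-sided (scipy 1.17.1), and Wilson intervals cover counting error only.

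The 12 named genes per direction were the called protein-coding genes outside the rule with the largest fold, of 1 sign in all mice or with no overlap between the sexes. From the lists, genes that passed and those with the smallest adjusted p were named. For the interaction the 5 smallest p were named. The members and lists were chosen with earlier results of these data known. The comparisons with F3-low ASC, by the F3 limit or the Dpp4 and Il6 limits alone, and among Dpp4-positive ASC were added after the data were seen, as was the rule on reads outside the ribosomal RNA rows CT010467.1 and AY036118.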

Additional observations from a re-analysis of the deposited data

Results flagged for a closer look

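In 7 of 64 groups of 4 or 7 mice, 1 mouse lay apart from the rest by Dixon's criterion, which chance alone meets in about 1 of 20 groups. Mouse 2, the only mouse sorted on DPP4, gave 6 of them. Its spike-in share of reads was higher in F3-positive than in other ASC by 1.02 percentage points, against −0.00345 to 0.0852 in the other mice, and its ribosomal RNA share differed by −7.78 points, against −2.56 to 0.196. Among F3-positive ASC of females, mouse 2 had the highest TMM-scaled CPM of 4 genes that were higher in males, with 0.137 for Sult1e1 (others 0 to 0.0221), 0.0971 for St8sia6 (others 0), 0.167 for Acsbg1 (others 0) and 1.08 for Nt5e (others 0 to 0.122). Mouse 5 had 22.8 CPM of Hoxa9, against 10.9 to 12.2 CPM in the other females.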

How the results depend on the processing

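The 253 genes called between F3-positive and other ASC became 494 with the likelihood ratio test, 608 with DESeq2, 64 with a fold change above 2.6 added, 162 with F3 of at least 100 CPM, 73 without plate 709, 1 against F3-low ASC of the same limits, 1 with the F3 limit alone and 458 with the Dpp4 and Il6 limits alone. With no replicate block 15 were called, as the pairing of classes within mice was then left out. Leaving out a mouse gave 172 to 285, and other scaling, no filter on counts, plates as block, F3 of at least 10 CPM, thinned cells, cells without markers of other classes and the rule outside ribosomal RNA gave 175 to 297.

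The 123 genes called between the sexes became 389 with the likelihood ratio test, 465 with DESeq2, 79 with F3 of at least 100 CPM, 79 in thinned cells, where fewer genes were tested, and 47 to 157 with a mouse left out. The interaction called 24 with the likelihood ratio test, 34 with DESeq2, 1 without plate 709 and 0 to 2 with a mouse left out. Against F3-low ASC the likelihood ratio test called 2 and DESeq2 9, and among Dpp4-positive ASC 46 and 101. The cause of these differences was not tested.

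The difference in the share of F3-positive ASC between the sexes, 0.703 points, turned to −5.07 without plate 709, −10.3 with F3 of at least 100 CPM and −2.36 in thinned cells. It was −12.6 among Dpp4-low, Il6-low ASC, −10.9 there with the rule outside ribosomal RNA, and −2.81 to 2.82 with a mouse left out. Against F3-low ASC, the differences in genes detected at 100000 reads and in spike-in share were 121.8 genes and −0.0404 points, against −60.9 and 0.174 for other ASC.

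Of 563 values of 26 genes between F3-positive and other ASC under the alternatives, 427 kept direction and side of the threshold, 128 lost the call, 8 gained it and 0 changed direction. Between the sexes, 378 of 395 values of 24 genes kept both and 17 lost the call. The rule on CPM rests on depth: after thinning to 100000 reads 761 cells were members, of which 706 were members before. The number of mice limits the comparisons of the sexes, where exact tests cannot fall under 0.0571.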
